A study of Mus musculus with 2 samples.

Results

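The Prtn3, Elane, Cfd and Arid3a locus is a 90 kb stretch of mouse chromosome 10, chr10:79335000-79425000 in build mm9, in which 11 of the 6792 Runx1 peaks of the list have their midpoint. Its members were chosen by position: every peak whose midpoint lay inside that window was taken. The window was set around a group of peaks already known to be large, so the number of peaks in it is a description and was not tested. The libraries came from BMiFLT3(15-3), a pro-B-cell line derived from a mouse B-cell-precursor acute lymphoblastic leukaemia. All cells carried transduced Runx1-ERt2, a fusion of Runx1 with a tamoxifen-binding receptor domain that holds it outside the nucleus until the drug is given. Of the 2 libraries, 1 was immunoprecipitated with rabbit anti-Runx1, raised against a C-terminal Runx1 peptide, and 1 with rabbit anti-IgG as background. The protocol gives 0.2 µM tamoxifen or ethanol for 24 h, and the labels do not say which of them either library received. With 1 library an arm there was no replicate, so no value below has an error between cultures. Binding of the cells' own Runx1 and of the fusion cannot be told apart, and the cells are a leukaemic line, not normal progenitors.

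Runx1 is the DNA-binding partner of CBFβ in core-binding factor and acts in both the myeloid and the B-lymphoid lineage. Prtn3 encodes proteinase 3 and Elane encodes neutrophil elastase, serine proteases stored in the azurophil granules of neutrophil precursors. Cfd encodes complement factor D (adipsin), a related serine protease that cleaves factor B in the alternative complement pathway. Arid3a, also called Bright, encodes an ARID-domain protein that binds AT-rich DNA, including matrix attachment regions of the immunoglobulin heavy-chain locus in B cells. The neighbourhood therefore joins genes known for myeloid granules to a gene known for B cells.

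In the RefSeq gene table of GRCm38.p6, a later build, the order is Prtn3, Elane, the pseudogene Gm19810, Cfd, Med16, the small nuclear RNA gene Gm24019, R3hdm4, Kiss1r, the long non-coding RNA gene Gm40715 and Arid3a. These are 10 genes, of which 7 are protein-coding. Med16 encodes a subunit of the Mediator complex and Kiss1r the kisspeptin receptor. Plppr3 is the protein-coding gene that precedes Prtn3, and Wdr18 the one that follows Arid3a. Only this order was used. Coordinates were not carried from one build to the other, so no peak was placed in a promoter, exon, intron or UTR of any of these genes, and the sequence under the peaks is not shown.

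The promoters of Prtn3, Elane and Cfd are shown because these 3 protease genes give the locus its name and because Elane is a textbook target of the myeloid factors PU.1, C/EBP and MYB. Of the 4 member genes, 3 matched the promoter table by symbol. The sequences are the 250 bases before each gene's start, from RefSeq on GRCm38.p6, plus strand, at chr10:79879417-79879666 for Prtn3, chr10:79886062-79886311 for Elane and chr10:79890603-79890852 for Cfd. These positions are on another build and cannot be set beside those of the peaks. Capitals mark matches to GAGGAA (PU.1) and AACNG (MYB) on either strand.
Prtn3: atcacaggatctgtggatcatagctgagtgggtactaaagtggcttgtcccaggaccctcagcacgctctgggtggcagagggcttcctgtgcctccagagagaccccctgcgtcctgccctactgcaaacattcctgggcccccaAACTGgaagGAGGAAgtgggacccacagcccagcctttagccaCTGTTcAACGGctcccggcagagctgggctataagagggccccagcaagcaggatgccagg
Elane: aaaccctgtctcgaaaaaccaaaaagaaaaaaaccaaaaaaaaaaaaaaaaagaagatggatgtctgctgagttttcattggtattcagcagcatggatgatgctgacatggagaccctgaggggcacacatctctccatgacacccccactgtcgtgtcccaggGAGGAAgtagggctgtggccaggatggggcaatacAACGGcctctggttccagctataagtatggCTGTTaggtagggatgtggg
Cfd: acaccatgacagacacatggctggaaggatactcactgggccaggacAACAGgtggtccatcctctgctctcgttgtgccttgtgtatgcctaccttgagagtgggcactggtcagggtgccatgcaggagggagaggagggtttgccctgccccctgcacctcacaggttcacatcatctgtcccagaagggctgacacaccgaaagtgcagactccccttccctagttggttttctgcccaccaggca

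Prtn3 and Elane each held 1 GAGGAA, which ran from 95 to 90 bases before the start in Prtn3 and from 85 to 80 bases before it in Elane. In both, an AACGG form of the MYB motif followed on the same strand, from 55 to 51 bases before the start in Prtn3 and from 50 to 46 in Elane. Prtn3 held 3 AACNG matches in all and Elane 2. The GAGGAA and AACGG pair thus had the same order and nearly the same place in both protease promoters. The CTGTT match, AACNG on the other strand, did not keep its order. It ran from 61 to 57 bases before the start in Prtn3, upstream of AACGG. In Elane it ran from 20 to 16, downstream of AACGG. How many other promoters hold such a pair was not counted. The Cfd promoter had no GAGGAA and held 1 AACNG match before the start, from 203 to 199 bases upstream. GAGGAA was present in 23.3% of all 32851 promoters over the same 250 bases, and AACNG in 74.2%, so neither match is rare. The Runx1 core TGTGGT and its form TGCGGT had no match in these 3 promoters, over the 300 bases or the 250. They were found in 14.0% and 5.10% of all promoters over the 250 bases. The C/EBP motif TTGCNNAA (9.56% of promoters) and the EBF motif TCCCNNGGGA (0.779%) also had no match in the 3. None of the listed motifs overlapped another in these promoters. A match describes the letters in this window, and a missing match says nothing about the factor.

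Other promoters were read in the same way over the 300 bases of the table. For a list of neutrophil granule genes with the transcription factor gene Cebpe added, 7 of 8 were matched, all but Cebpe. TGTGGT was present in 3 of them, Ctsg (cathepsin G), Ltf (lactoferrin) and Lyz2 (lysozyme). GAGGAA was present in 4, Ctsg, Lcn2, Ltf and Mpo (myeloperoxidase). For B-cell genes, 7 of 10 were matched, and TGTGGT was present in 3, Ebf1, Igll1 and Rag1. GAGGAA was present in 5, Cd79a, Ebf1, Igll1, Rag2 and Vpreb1. Over all promoters the shares were 16.8% for TGTGGT and 28.3% for GAGGAA. The shares in this paragraph count promoters, 32851 from 27025 genes. The lists count genes with a match in any of their promoters, so the units differ. The promoters of Med16, R3hdm4 and Kiss1r, which lie between Cfd and Arid3a, had no TGTGGT, and GAGGAA was present in 1 of them, Kiss1r. In the ARID3 family, TGCGGT was present in both matched genes, Arid3b and Arid3c, against 6.45% of all promoters, and TGTGGT and GAGGAA in neither. TTGCNNAA was present in 3 granule genes, Lcn2, Ltf and Ngp, in 0 of the 7 matched B-cell genes and in Arid3b, against 10.8% of all promoters. AACNG, at 80.3% of all promoters, was present in 7 of 7 granule genes and 5 of 7 B-cell genes, and in Med16, R3hdm4, Kiss1r, Arid3b and Arid3c. TGCGGT had 0 matches among the granule and B-cell genes, and TCCCNNGGGA had 0 in any of these lists. These lists were read for their letters alone, and whether the list of peaks has a peak at those genes was not determined.

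The 11 peaks, numbered along the chromosome, fell into a left group of 3, a middle group of 5 and 3 single peaks to the right. They spanned 70.0 kb and covered 10036 bp, which was 14.3% of that span. The score of a peak is the authors' value from the peak caller. Its scale is not stated, a higher value is read as a stronger peak, and scores are compared here only within this list. The list gives no read numbers, so the depth behind a score is unknown.

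The left group began at 79340364. Peak 1 ran from there to 79341271, a width of 908 bp, and scored 184.4, rank 1817 of the list. Peak 2, from 79342509 to 79343218 (710 bp), scored 83.43, rank 4402. Peak 3, from 79343629 to 79344463 (835 bp), scored 246.75, rank 1155. The weakest of the 3 thus stood between the other two, 1237 bases after the first and 410 before the third.

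The middle group held the strongest peak of the locus and its weakest. Peak 4, from 79356713 to 79357642 (930 bp), scored 743.22, which ranked 62 in the list and 3 among the 400 peaks of chromosome 10. Peak 5, from 79357736 to 79359257, was the widest of the locus at 1522 bp, rank 101 of the list by width, and scored 315.03, rank 745. Peak 6, from 79359362 to 79360206 (845 bp), scored 229.48, rank 1283. These 3 peaks lay in steps of falling score from left to right. Peak 7, from 79360226 to 79361024 (799 bp), continued the fall with a score of 62.3, rank 5695. Peak 8 stood a little apart, 2448 bases after peak 7, from 79363473 to 79364526 (1054 bp), and scored 98.7, rank 3772. Between peaks 4 and 5, 5 and 6, and 6 and 7, the stretches outside any peak were 93, 104 and 19 bases long.

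The right part was sparse. Peak 9, from 79379839 to 79380533 (695 bp), scored 85.9, rank 4312, and was the narrowest of the 11. Peak 10, from 79399524 to 79400285 (762 bp), scored 120.85, rank 3055. Peak 11, from 79409346 to 79410321 (976 bp), scored 654.51, rank 100 in the list and 5 on chromosome 10. The locus therefore had 2 peaks among the 100 highest of the list, at its middle and at its right end. Their starts were 16.3 and 69.0 kb from the start of peak 1, with the rest of the middle group and weaker single peaks 9 and 10 between them.

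**Figure D1:**
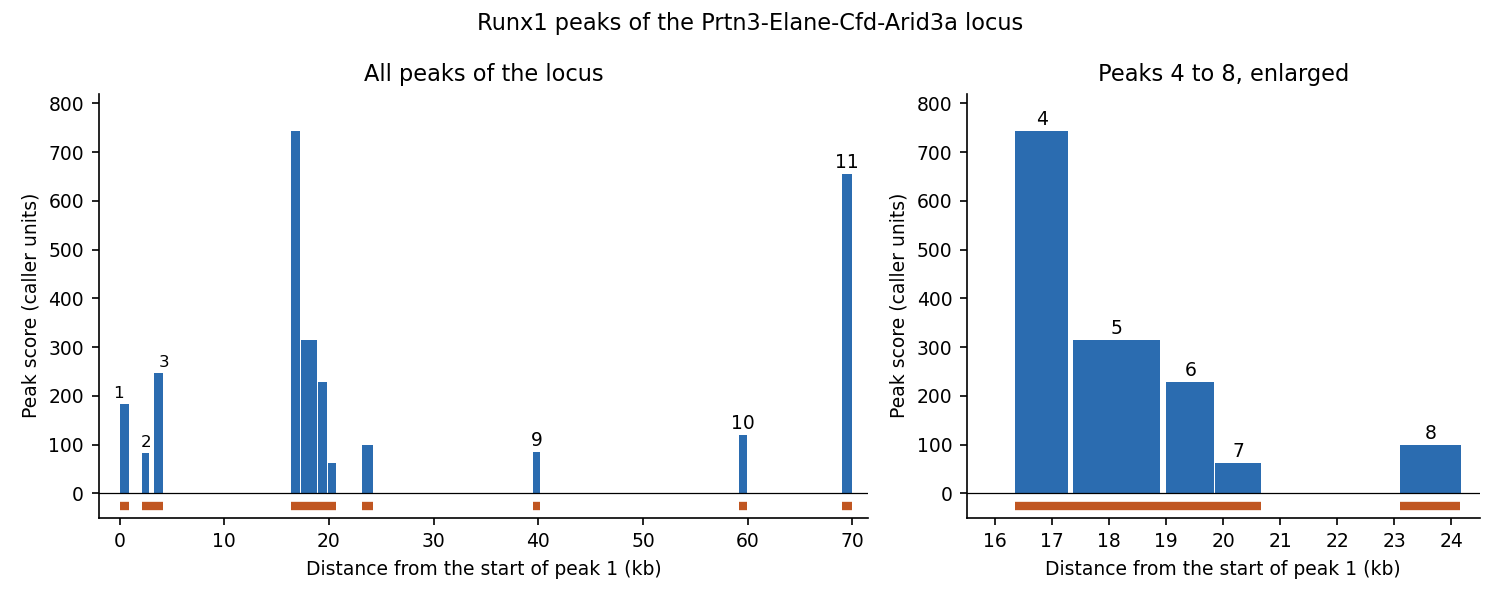
Score of each of the 11 peaks (y axis, caller units) against distance from the start of peak 1 (x axis, kb), with bars as wide as the peaks and the right panel enlarging peaks 4 to 8. Orange lines below the axis show the 7 intervals left after joining within 500 bp. Peaks 4 and 11 stand highest, at 743.22 and 654.51, and scores step down from peak 4 to peak 7.

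At the edges of the window the neighbours were distant. The nearest peak before it ran from 79294559 to 79295942 and scored 331.25, rank 674, with 44.4 kb between its end and peak 1. The nearest after it ran from 79456941 to 79458140 and scored 272.09, rank 982, 46.6 kb beyond peak 11. In the 500 kb before the window the list had 5 peaks, the highest at 331.25. In the 500 kb after it there were 10, the highest at 316.56. Per 90 kb these flanks held 0.9 and 1.8 peaks on average, and their fullest 90 kb held 3 before and 5 after, against 11 in the locus, which was chosen for its peaks. Both flank maxima were below the scores of peaks 4 and 11 and above those of the other 9 peaks of the locus, of which peak 5 came nearest.

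Strong and weak peaks were mixed within the locus. Scores ran from 62.3 to 743.22 with a median of 184.4, while the list ran from 50.03 to 1955.87 with a median of 109.54. At or above the list median were 7 of the 11 peaks (1, 3, 4, 5, 6, 10 and 11), and 4 were below it (2, 7, 8 and 9). Of the 11, 5 scored at least 200, against 23.6% of the list, and 2 at least 500, against 3.37%. With 11 peaks chosen after their values were known, these counts are a description.

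**Figure D2:**
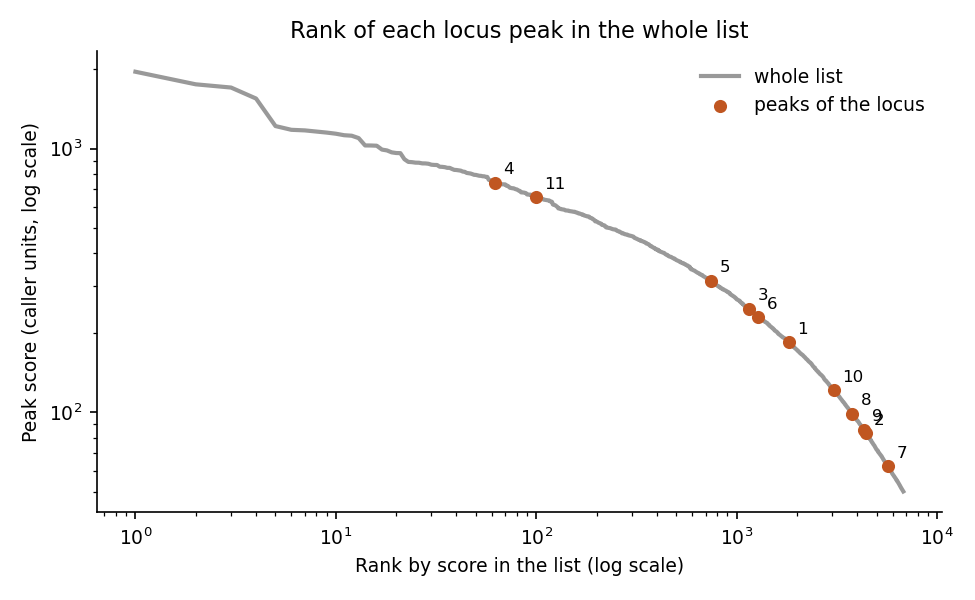
Score (y axis, caller units, log scale) against rank by score (x axis, log scale) for the whole list of 6792 peaks (grey line), with the 11 peaks of the locus as numbered orange points. Peaks 4 and 11 lie at ranks 62 and 100, and peak 7 lies at rank 5695, near the low end.

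Width did not separate these peaks from the rest of their chromosome. The median width was 845 bp in the locus, 787 bp in the list and 861 bp on chromosome 10. Width and score had a Spearman's rho of 0.65 across the 11 peaks and of 0.51 across the list. Wider peaks tended to score higher in both. The peaks share their libraries and caller, so these values are a description.

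Set beside peaks of about their own width, the members differed among themselves. Of the 860 peaks within 50 bp of the width of peak 4, the member itself included, 4 scored higher (0.465%), and their median score was 171. For peak 11, 12 of 559 scored higher (2.15%). Peaks 4 and 11 therefore scored high for their width. Peaks 3 and 6 were exceeded by 219 of 1600 and 258 of 1546 peaks of like width. Peak 5, the widest, was exceeded by 18 of 46 (39.1%), close to the middle for its width. Peaks 7 and 8 lay at the other end, with 1504 of 1734 (86.7%) and 292 of 345 (84.6%) peaks of like width scoring higher. Peak 8 was thus a broad and weak peak beside the strongest stretch of the locus.

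**Figure D3:**
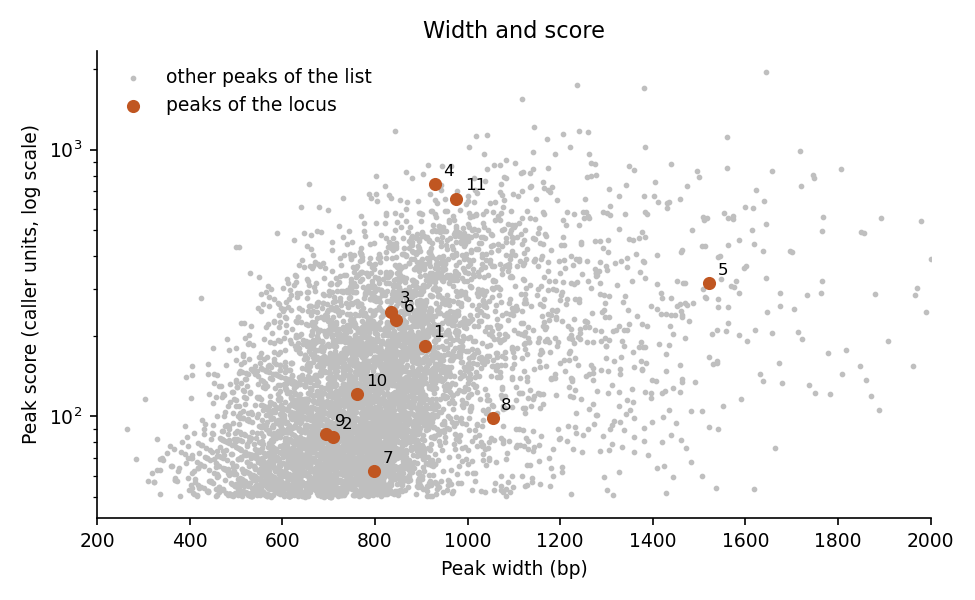
Score (y axis, caller units, log scale) against width (x axis, bp) for the list (grey) and the 11 locus peaks (numbered, orange), with the 9 peaks wider than 2000 bp not drawn. Peaks 4 and 11 lie at the upper edge of the cloud at 930 and 976 bp, and peaks 7 and 8 lie low for their widths.

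The number of peaks depended in part on short distances between neighbouring intervals. Joining within 500 bp left 7 intervals in the locus, and joining within 2 kb left 6. Of the 10 gaps inside the locus, measured from the end of one peak to the start of the next, 4 were at most 500 bp long, and these were the gaps after peaks 2, 4, 5 and 6. In the whole list 213 of 6769 gaps were that short, which is 3.15%. The gap of 19 bases after peak 6 was matched or undercut by 17 gaps of the list, itself included, and that of 93 bases after peak 4 by 64. The median gap was 1.84 kb in the locus and 72.0 kb in the list. The window was chosen around close peaks, so short gaps in it are no independent finding.

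**Figure D4:**
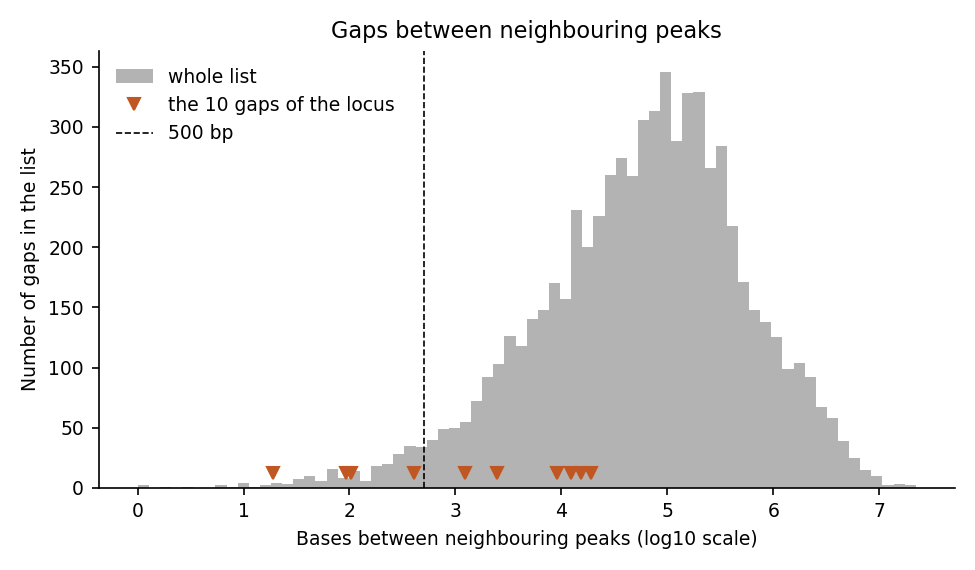
Number of gaps (y axis) by their length in bases (x axis, log10 scale) for all 6769 neighbouring pairs of the list (grey), with the 10 gaps of the locus as orange triangles drawn at one arbitrary height. The dashed line marks 500 bp, and 4 triangles lie to its left.

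Joining intervals within 500 bp over the whole list left 6579 intervals, of which 7 were in the locus. Peaks 2 and 3 became 1 interval from 79342509 to 79344463, 1955 bp wide, and peaks 4 to 7 became 1 interval from 79356713 to 79361024, 4312 bp wide. The other 5 peaks stayed as they were. Each joined interval was given the highest score of its peaks. The 4312-bp interval kept rank 62 by score and ranked 2 by width, behind a single 6165-bp peak on chromosome 17 that scored 64.74. It was the only interval in the list made of 4 peaks, none was made of more, 11 were made of 3 and 188 of 2. Deposited peaks filled 95.0% of it. The interval of peaks 2 and 3 ranked 1141 by score and 99 by width, and peaks filled 79.0% of it.

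The ranks of the single peaks moved little on joining, because the list became shorter. Peak 1 moved to rank 1789, peak 8 to 3683, peak 9 to 4202 and peak 10 to 2984, and peak 11 stayed at 100. Joining within 2 kb also took peak 1 into the left interval, which then ran from 79340364 to 79344463 over 4100 bp, and left 6 intervals in the locus. The 4312-bp interval was the same under both distances.

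Whether one extended bound region or several adjacent ones underlie peaks 4 to 7 was not tested, since the list gives no summits and no signal between the intervals.

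The locus was set beside the next largest clusters of the list, a cluster being 3 or more peaks with neighbouring midpoints within 20 kb. Counted as deposited it was the largest of 417, with 11 peaks. The cluster on chromosome 7 from 132698765 to 132779623 had 10 peaks, and after joining within 500 bp it kept 9 intervals against 7 here. It was the weaker by score, with a median of 85.8 against 184.4 and 4 of 10 peaks at or above 100 against 7 of 11. Its highest score, 887.8 at rank 24, was above that of peak 4. The cluster on chromosome 7 from 71041003 to 71085073 kept all 8 of its peaks on joining, had a median score of 234 and 7 peaks at or above 100, and reached 1160.48. The cluster on chromosome 5 from 125487466 to 125537264 went from 8 to 6 intervals and had a median score of 130. After joining within 500 bp, 4 clusters of the list had more intervals than the locus and 11, itself included, had at least as many. No test of these differences is given, because each cluster was found by its peaks.

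**Figure D5:**
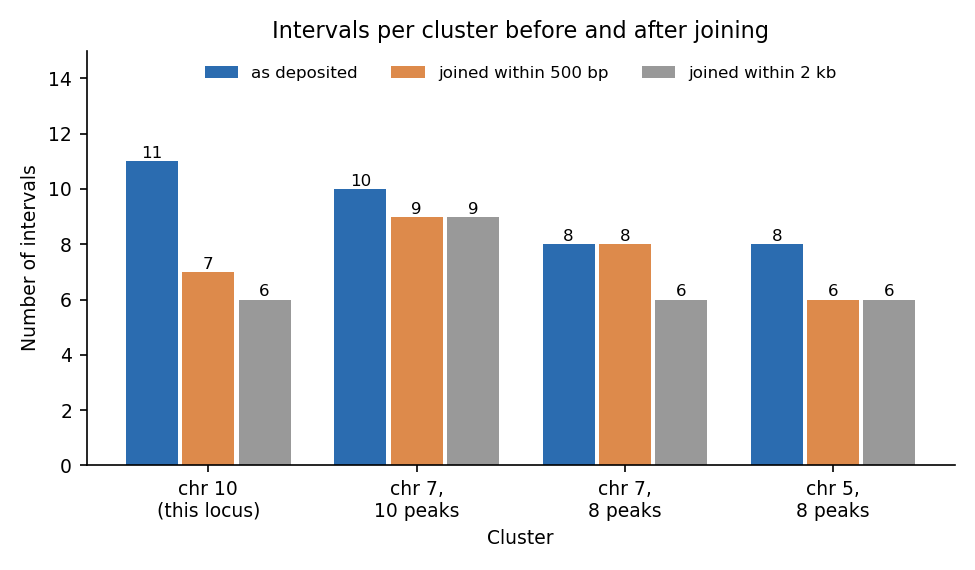
Number of intervals (y axis) in the locus and the 3 next largest clusters (x axis), as deposited and after joining within 500 bp and within 2 kb. The locus falls from 11 to 7 and 6 intervals, and the 10-peak cluster on chromosome 7 falls to 9.

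Counted without the 20-kb rule, a denser stretch lay on the same chromosome. Between 80979662 and 81068074 of chromosome 10, 13 peaks had their midpoints within 90 kb, with a largest distance of 24.6 kb between neighbouring midpoints, so the cluster rule divides them. That stretch covered 11775 bp against 10036 bp here. Its peaks were weaker, with a median score of 94.3 and a highest of 414.33, and 1 of its gaps was at most 500 bp long. After joining within 500 bp it held 12 intervals against 7, and 25 separate windows of 90 kb outside the locus then held at least as many intervals as the locus, against 1 as deposited. With a neighbour distance of 50 kb the locus formed part of a cluster of 15 peaks over 201.3 kb, tied for the second place by size, and with 10 kb it broke into clusters of 5 and 3 peaks. The locus is thus the largest cluster under the 20-kb rule and not the densest 90 kb of the list, and its 2 strongest peaks exceed every peak of that stretch.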

How the data were processed

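Chromatin immunoprecipitation with sequencing was done on 2 libraries, anti-Runx1 and IgG, and the authors deposited 1 list of peaks made from both, per the file headers. Build mm9 and the tools MACS 1.4.01 (peak calling software), Bowtie 0.12.8 (read alignment software) and CASAVA 1.8.2 are listed in the submitters' processing notes. Settings of these tools were not given in the sources used here. Library fragments were 350 to 550 bp, per the labels' protocols. The deposited score of each peak was used as given, and peak starts were converted to count from 1.

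Members, gene lists, motifs and alternatives were chosen with earlier results of these data known. All 11 peaks are named; genes named are the 4 members, the genes between and beside them, and the fixed lists. Intervals were joined over the whole list where at most 500 bp or 2 kb separated them. Ranks run from the highest score, and equal scores share the better rank. Windows of 90 kb elsewhere were started at each peak midpoint, a measure added after seeing the data. Joining and clustering were checked on simulated data. Motif matching was checked on short made-up sequences, for TGTGGT and TCCCNNGGGA only. No test was made, since there was no replicate. Python 3.11.15, numpy 2.4.6, pandas 2.3.3, scipy 1.17.1 and matplotlib 3.10.9 were used.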

Additional observations from a re-analysis of the deposited data

How the results depend on the processing

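The number of peaks in the locus was 11 as deposited, 7 with intervals within 500 bp joined, 6 within 2 kb, 7 at a score of at least 100 and 7 at or above the list median. It was 8 in a window narrowed by 10 kb on each side and 11 in one widened by as much or with any overlapping base counted. Bases covered were 10662 and 11899 after joining within 500 bp and 2 kb, 6778 under either score limit and 7583 in the narrowed window. The median score was 246.75 under either score limit and 175 in the narrowed window, and the highest score was 743.22 in each of these settings. On a fixed grid of 90-kb stretches, 0 held as many peaks as the locus, and the counts on this grid were 8 and 13 after joining within 500 bp and 2 kb and 1 at a score of at least 100. With the grid shifted by 45 kb, and peaks as deposited, the count was 1, the locus itself. The grid divides the locus and other dense stretches, and its fullest stretch held 9 peaks. Among windows started at each peak midpoint, chosen after seeing the data, the separate windows outside the locus with at least as many peaks numbered 1 as deposited, 25 and 43 after joining within 500 bp and 2 kb, and 5 at a score of at least 100. The cluster at the locus held 5 peaks with a distance of 10 kb, 15 with 50 kb, and 7 and 6 intervals after joining within 500 bp and 2 kb. The median distance between neighbours was 2.71 kb from midpoint to midpoint against 1.84 kb from end to start. Joining, a score limit and another distance change these counts by construction. For each motif, the number of the 3 promoters with a match was the same over the 250 bases before the start as over the 300.

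Leaving out a replicate was not possible with 1 library an arm. No paired analysis was possible because each arm has 1 library and no test was made. The depth behind weak or missing peaks is unknown.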
